A study of Arabidopsis thaliana with 6 samples.

Results

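The pifq and f1f3 mutants of Arabidopsis thaliana were compared directly, gene by gene, with the Col wild type left out of the contrast. The comparison holds 4 of the 6 libraries of the series, 2 per mutant, and covers 20239 of 24439 listed genes, those with a deposited value of at least 10 in at least 2 of the 4 mutant libraries. RNA was sequenced from seedlings that had been cold-treated for 3 days at 4 °C, given 12 h of white light and then kept in darkness for 4 days at 22 °C. In f1f3, FYPP1 and FYPP3 are both disrupted (label "fypp1 fypp3 homozygote"). The pifq label has spelling errors ("pifq1 pifq3 piq4 pifq5 homozygote") and is taken here as the quadruple mutant of PIF1, PIF3, PIF4 and PIF5. The labels call the 2 libraries of a genotype biological replicates and do not say whether they were grown apart. A p-value thus sets a mutant difference only against the spread among the sequenced libraries, Col included.

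FYPP1 and FYPP3 encode catalytic subunits of protein phosphatase 6 (PP6). The PIF proteins are basic helix-loop-helix transcription factors that accumulate in darkness, promote hypocotyl elongation and hold back greening until light-activated phytochromes trigger their phosphorylation and breakdown. The series asks how PP6 acts on PIF proteins during growth in the dark, and the pair of mutants sets loss of the phosphatase against loss of its proposed substrates. Whole seedlings were sampled, so fewer cells of a type and less RNA per cell cannot be told apart.

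A deposited value is a read count divided by a factor for its library. Recovered depth was 20.2 M reads in f1f3 replicate 1, 21.6 M in f1f3 replicate 2, 27.7 M in pifq replicate 1 and 19.4 M in pifq replicate 2. The median absolute log2 difference over genes was 0.29 between the f1f3 libraries, 0.27 between the pifq libraries and 0.42 to 0.49 between libraries of different mutants. Replicate 1 of pifq stood apart in seed transcripts. The 13 seed and embryo markers summed to 21154 there, against 45.2 in pifq replicate 2 and 159.8 and 217.7 in f1f3. None of the 8 seed markers tested passed under limma or edgeR with TMM factors, 0 had an unadjusted limma p under 0.05, and 2 passed under DESeq2. Without pifq replicate 2, 3 were called higher, and without pifq replicate 1, 1 was called lower. Their part in other results was not tested; counts without that library are given below.

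Targeted genes came first as a check of the labels. FYPP1 (AT1G50370, chr1:18658508-18662052) stood at 386.4 and 285.3 in the f1f3 libraries, 630.8 and 758.2 in pifq and 712 and 758.8 in Col. FYPP3 (AT3G19980) stood at 284.8 and 259.8 in f1f3, 447.2 and 568.6 in pifq and 583.4 and 596.9 in Col. Both phosphatase transcripts were thus lower in f1f3, with log2 differences (pifq minus f1f3) of 1.06 and 0.89 and limma adjusted p of 0.0125 and 0.0187. PIF3 (AT1G09530, chr1:3075768-3079654) stood at 1447 and 1469 in f1f3 and 1776 and 1959.5 in Col, and at 62.3 and 37.5 in pifq, a log2 difference of -4.89 ± 0.24 (SE, limma adjusted p = 4.01e-05). PIF4 (AT2G43010) went the other way, at 115.4 and 87.8 in f1f3 and 679.5 and 1034 in pifq, a log2 difference of 3.05 ± 0.26 (SE). PIF5 was lower in both pifq libraries (87.8 and 139.6) than in f1f3 (335.6 and 192.2) but did not pass (limma adjusted p = 0.0503), although it did under edgeR with TMM factors (adjusted p = 0.0437) and DESeq2 (adjusted p = 0.0106). PIF1 stood at 994.1 and 962 in f1f3 and 1159.5 and 1218 in pifq and did not pass. The position of each insertion is not given in the labels, so transcript level alone does not check the pif1, pif4 and pif5 genotypes. Without pifq replicate 2 or without f1f3 replicate 2, FYPP1 and FYPP3 no longer passed (limma adjusted p from 0.0729 to 0.118), and FYPP3 also missed without f1f3 replicate 1 (0.0517).

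Across the genome, 3307 of 20239 genes differed (16.3%, limma adjusted p under 0.05). Of these, 1936 were higher in pifq (9.57% of genes tested) and 1371 were lower (6.77%). Differences of at least 2-fold passed for 1430 higher and 815 lower genes. All 3307 called genes had mutant libraries that did not overlap. Of all genes tested, 29.3% did not overlap with pifq higher and 30.2% with pifq lower, so lack of overlap alone is common. Large differences leaned towards pifq: 87 genes were higher by 4 to 6 log2 units and 15 by more, whereas 43 were lower by 4 to 6 units and 6 by more. The split by direction depended on the scaling. With values rescaled to library totals, which moved the median of all genes by -0.13 on the log2 scale, limma called 1524 genes higher and 1910 lower. Without 1 mutant library the count fell to 1975 without pifq replicate 1, 1415 without pifq replicate 2, 2079 without f1f3 replicate 1 and 1426 without f1f3 replicate 2. Under edgeR with TMM factors 3277 genes passed (16.2%), and 4343 passed under DESeq2 (21.5%).

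**Figure D1:**
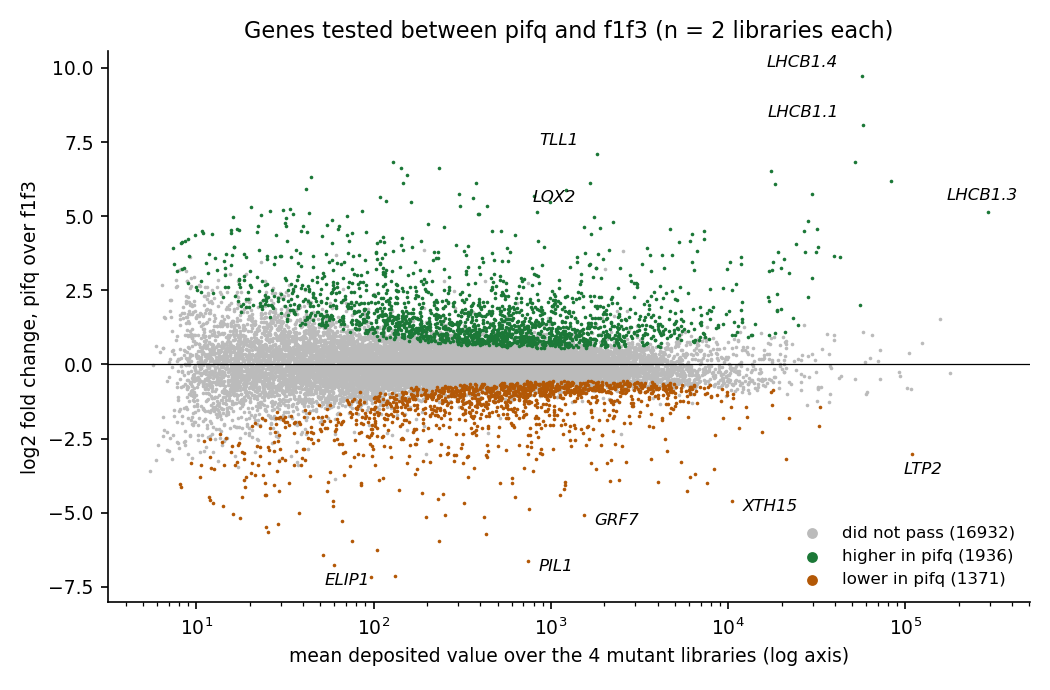
Each point is 1 of the 20239 genes tested; the x axis is the mean deposited value over the 4 mutant libraries (log axis) and the y axis the log2 fold change of pifq over f1f3. Green points are the 1936 genes higher in pifq and orange points the 1371 lower; the light-harvesting genes LHCB1.4, LHCB1.1 and LHCB1.3 lie at the upper right.

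Called genes were spread over the 5 nuclear chromosomes. The share called was lowest on chromosome 3, with 357 genes higher and 240 lower of 3981, and highest on chromosome 4, with 323 higher and 234 lower of 3055. The chloroplast genome had 4 of 117 genes called, all higher in pifq (3.42%), and the mitochondrial genome 1 of 56 (1.79%), which was lower. The share called rose with level, from 10.6% of the 5060 genes with the lowest mean values to 22.1% of the 5060 with the highest. The Col libraries were not in the contrast, but their spread entered the fit that made the calls. Both lay between the mutants for 697 of the 1936 genes higher in pifq and for 511 of the 1371 lower genes. Both Col libraries lay above all 4 mutant libraries for 355 of the higher genes (18.3%) and below all of them for 177 of the lower genes (12.9%). Of the 1936 higher genes, 1382 had a Col mean nearer to pifq than to f1f3 (71.4%), as had 834 of the 1371 lower genes (60.8%). For genes at least 2-fold different this held for 1030 of 1430 higher (72.0%) and 430 of 815 lower (52.8%). Col lay below all mutant libraries for 4.66% of those 815. Over all genes tested, the median absolute log2 difference from a Col library was 0.34 to 0.46 for pifq libraries and 0.48 to 0.58 for f1f3 libraries. The place of Col was counted for called genes only. Whether these shares differ from those of all genes was therefore not tested.

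Light-harvesting antenna genes were among those with the largest differences. These nuclear genes encode the chlorophyll a/b-binding proteins that feed light energy into photosystems I (LHCA) and II (LHCB). All but 2 of the 21 genes tested were higher in pifq, LHCB7 and LHCB4.3 being the exceptions, and the same number, 19, passed with any 1 mutant library left out. The median log2 difference of the list was 4.57, beside -0.03 for all genes tested. LHCB1.4 (AT2G34430, chr2:14524607-14525918) was at 100.6 and 173.8 in the f1f3 libraries, 2174 and 947.8 in Col and 104846 and 122908 in pifq. That is a log2 difference of 9.73 ± 0.39 (SE, limma adjusted p = 2.00e-05), with both pifq libraries above both Col libraries and these above both f1f3 libraries. LHCB1.1 was at 354.7 and 453.8 in f1f3 and 74115 and 155431 in pifq. The most abundant member, LHCB1.3, stood at 26269 and 9810.5 in f1f3, where replicate 1 was the higher, and at 524383 and 606414 in pifq. LHCB1.2, LHCB1.5, LHCB2.1 and LHCB2.2 had log2 differences of 6.82, 6.18, 6.10 and 6.51. The photosystem I antenna gene LHCA1 rose from 1412 and 813.7 in f1f3 to 50110.1 and 67203 in pifq. Taken as a sum, antenna transcripts were 0.357% and 0.162% of the f1f3 libraries, 6.51% and 8.35% of the pifq libraries, and 2.37% and 1.77% of the Col libraries. The LHCB1 and LHCB2 copies are near-identical, and how the counting treated reads that fit several copies is not given in the sources used here, so values of single copies are uncertain.

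The 250 bases before the annotated start are shown for 3 antenna genes. The search for short light- and PIF-related motifs in every gene covered these bases and 50 more past the start. Sequences are from RefSeq TAIR10.1 and read 5′ to 3′ on the gene's strand. Capitals mark the G-box CACGTG, the PBE-box CATGTG or CACATG, and the I-box core GATAA or TTATC.
LHCA1 (chr3:20341177-20341426, minus strand, 1 PBE-box and 3 I-box cores): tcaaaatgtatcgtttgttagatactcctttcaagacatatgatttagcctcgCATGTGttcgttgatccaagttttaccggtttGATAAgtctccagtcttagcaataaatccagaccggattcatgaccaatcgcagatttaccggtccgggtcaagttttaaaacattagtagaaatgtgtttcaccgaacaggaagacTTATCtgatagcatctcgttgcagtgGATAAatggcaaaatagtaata
LHCB2.2 (chr2:1800473-1800722, minus strand, 2 I-box cores): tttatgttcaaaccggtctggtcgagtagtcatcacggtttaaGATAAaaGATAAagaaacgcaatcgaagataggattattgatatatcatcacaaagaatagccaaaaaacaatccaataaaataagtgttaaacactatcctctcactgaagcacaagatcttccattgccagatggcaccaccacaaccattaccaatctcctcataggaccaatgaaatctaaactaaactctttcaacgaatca
LHCA4 (chr3:17495034-17495283, minus strand, 1 G-box): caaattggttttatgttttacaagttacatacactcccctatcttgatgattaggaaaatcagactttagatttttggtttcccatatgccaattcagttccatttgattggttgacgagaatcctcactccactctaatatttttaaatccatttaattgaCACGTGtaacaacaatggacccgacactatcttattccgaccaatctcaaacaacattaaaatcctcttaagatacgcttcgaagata
The I-box core occurred in 20 of 21 antenna promoter windows taken to 50 bases past the start, and in 61.2% of all 20047 windows tested. LHCB7 was the antenna gene without it. LHCA4 has I-box cores starting at -4 and 4, which the bases shown do not hold whole, so they are not marked above.

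Nuclear photosystem genes moved with the antenna. All 26 members tested, which encode subunits of both photosystems, the oxygen-evolving complex, the cytochrome b6f complex and plastocyanin, were higher in pifq, with log2 differences from 1.38 to 4.51 and a median of 3.46; between 24 and 26 passed with 1 mutant library left out. PSBO2 (AT3G50820), an oxygen-evolving complex protein, stood at 664.8 and 478.4 in f1f3 and 9625 and 10407 in pifq. The pifq libraries were close to each other and the f1f3 libraries lay far below, a log2 difference of 4.15 ± 0.20 (SE, limma adjusted p = 3.69e-05). PSBQ-2, PSAK and PSAN had log2 differences of 4.51, 4.18 and 3.92. As a share of each library, photosystem transcripts were 0.372% and 0.208% in f1f3, 2.23% and 2.65% in pifq, and 1.003% and 0.867% in Col.

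Genes of chlorophyll synthesis were mostly higher in pifq, and 1 of them went the other way. Of 27 genes tested, 22 were higher and 1 lower, with a median log2 difference of 1.17. The share called was 85.2%, beside 16.3% of all genes tested. CHLH (AT5G13630), the large subunit of the magnesium chelatase that commits porphyrin to chlorophyll, stood at 4936 and 4329.9 in f1f3 and 34701 and 44707 in pifq. GUN4, which binds the chelatase's substrate and product, stood at 1070.3 and 665.3 and 4449 and 6105. CAO (AT1G44446), which makes chlorophyll b, stood at 471.1 and 409.9 and 2904 and 6056. These 3 had limma adjusted p of 5.40e-04, 7.34e-04 and 0.00116, and HEME1 of the porphyrin branch had a log2 difference of 1.67. PORA (AT5G54190), the protochlorophyllide oxidoreductase that builds up in darkness and is lost in light, was the exception, at 38261 and 30154 in f1f3, 9679 and 9809.7 in pifq and 70965 and 64658 in Col. It was thus lowest in pifq, with a log2 difference of -1.80 ± 0.29 (SE, limma adjusted p = 0.00543). With f1f3 replicate 2 left out, 14 members were higher; the other omissions of a mutant library left 16 to 19.

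Calvin cycle genes followed the photosystems at smaller sizes: 14 of 19 were higher in pifq, with a median of 1.82, and 11 to 14 with 1 mutant library left out. As a share of each library, transcripts of the list were 1.17% and 0.862% in f1f3, 2.51% and 2.81% in pifq, and 2.37% and 2.34% in Col. Col was thus close to pifq here, whereas photosystem shares in Col were well below those in pifq. RCA, the Rubisco activase, stood at 8388 and 5574 in f1f3 and 45987 and 58894 in pifq. GAPA-2, a chloroplast glyceraldehyde-3-phosphate dehydrogenase, stood at 1559 and 1011 and 10059 and 13006. Both were separated by more than the spread of their libraries (limma adjusted p = 8.44e-04 and 3.12e-04). HCEF1, a chloroplast fructose bisphosphatase, differed by 2.71 and the Rubisco small subunit gene RBCS1B by 3.03. RBCS3B, the most abundant small subunit gene called, stood at 28112 and 16793 and 73419.9 and 102045 and lost its call without replicate 2 of either mutant (limma adjusted p = 0.0804 and 0.0695). The small subunit copies share sequence, so their separate values are uncertain. In the carotenoid pathway 6 of 12 genes were higher and none was lower, led by PSY, the phytoene synthase that opens the pathway, at 826.8 and 847 and 3245 and 3911. That count was 3 without either pifq library and 2 without f1f3 replicate 2.

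Genes encoded in the organelles did not show differences of that size. In the chloroplast genome the median log2 difference over 117 genes was 0.32, and the 4 genes called were ATCG00905, ATCG01240, ATCG00420 and ATCG01230, with log2 differences of 1.04 to 1.87. The count was 1 without pifq replicate 1, 2 without f1f3 replicate 1 and 12 under DESeq2. In the mitochondrial genome the median over 56 genes was -0.84, but only ATMG01330 passed (41.3 and 65.8 in f1f3, 15.2 and 14.8 in pifq), and none did without either pifq library or without f1f3 replicate 2, whereas 3 did under DESeq2. Libraries of the mutants did not overlap for 31 of the 56 mitochondrial genes with pifq lower, and for 1 with pifq higher. Over all genes tested those shares were 30.2% and 29.3%. The summed mitochondrial share of a library did not separate the mutants, at 0.712% and 0.686% in f1f3 and 0.751% and 0.577% in pifq.

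**Figure D2:**
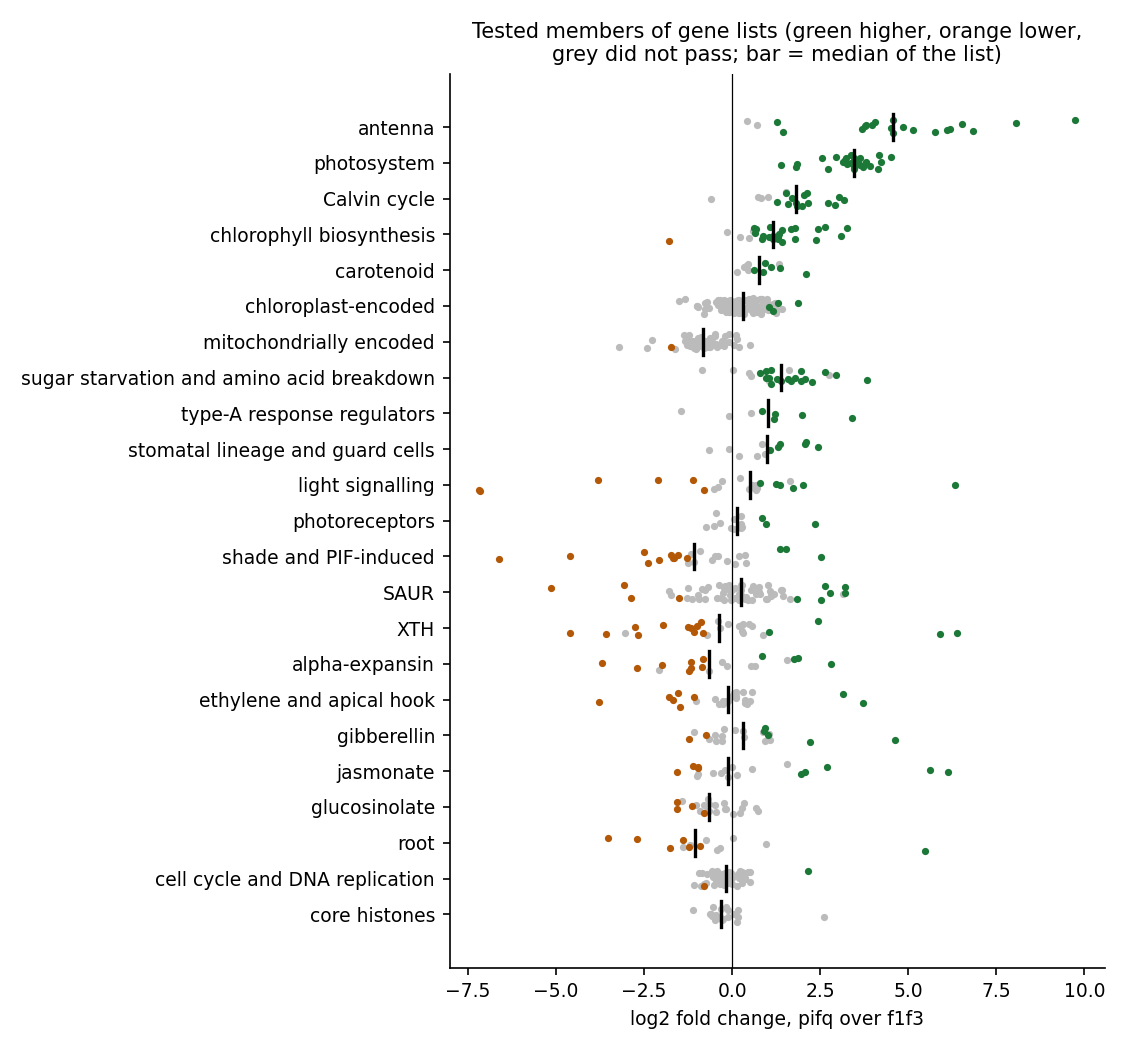
Each point is 1 tested member of a gene list, placed by its log2 fold change of pifq over f1f3; green members are higher in pifq, orange lower, and grey did not pass, and the bar is the median of the list. Antenna (19 of 21) and photosystem members (26 of 26) lie to the right, and most called shade and PIF-induced members (10 of 13) to the left.

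Among genes known to be induced by PIFs or shade, most of those that passed were lower in pifq. Of 25 tested, 10 were lower, 3 higher and 12 did not pass, with a median log2 difference of -1.10. The share called was 52%, beside 16.3% of all genes tested. PIL1 (AT2G46970, chr2:19295431-19297858), a bHLH gene induced by shade, stood at 1411 and 1518 in f1f3, 1256 and 1199 in Col and 14.4 and 13.6 in pifq. The f1f3 and Col libraries were of one order and both pifq libraries were far below them, a log2 difference of -6.61 ± 0.19 (SE, limma adjusted p = 6.83e-06). HFR1, a bHLH protein that restrains PIF activity, stood at 249.8 and 238.7 in f1f3, 43.1 and 40.9 in pifq and 667 and 745.6 in Col. HB-2 (also ATHB2), a homeodomain gene of the shade response, stood at 1445 and 1130.5 and 267.5 and 220.2. XTH15, a wall-loosening xyloglucan endotransglucosylase gene, fell from 25432 and 15116 in f1f3 to 727.5 and 908 in pifq, with Col highest at 48477 and 37367. The higher members were the auxin biosynthesis genes YUC2 and YUC9 and the small bHLH gene PRE1, and none of these 3 passed without pifq replicate 1. With 1 mutant library left out, 7 to 10 members passed as lower.

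The windows before the starts of 3 genes lower in pifq are shown for contrast with the antenna genes, with the same motifs in capitals.
ELIP1 (chr3:8085670-8085919, minus strand, 1 G-box and 1 I-box core): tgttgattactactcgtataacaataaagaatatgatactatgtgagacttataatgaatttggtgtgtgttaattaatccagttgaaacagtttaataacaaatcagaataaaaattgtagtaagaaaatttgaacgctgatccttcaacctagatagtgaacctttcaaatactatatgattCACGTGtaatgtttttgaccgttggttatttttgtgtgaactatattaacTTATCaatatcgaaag
PIL1 (chr2:19297859-19298108, minus strand, 1 I-box core): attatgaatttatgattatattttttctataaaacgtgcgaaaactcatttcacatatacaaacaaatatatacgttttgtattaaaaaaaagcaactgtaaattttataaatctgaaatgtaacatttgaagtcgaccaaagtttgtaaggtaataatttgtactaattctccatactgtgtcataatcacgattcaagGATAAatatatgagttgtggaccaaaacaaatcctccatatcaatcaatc
CEL2 (chr1:616232-616481, minus strand, 1 PBE-box and 1 I-box core): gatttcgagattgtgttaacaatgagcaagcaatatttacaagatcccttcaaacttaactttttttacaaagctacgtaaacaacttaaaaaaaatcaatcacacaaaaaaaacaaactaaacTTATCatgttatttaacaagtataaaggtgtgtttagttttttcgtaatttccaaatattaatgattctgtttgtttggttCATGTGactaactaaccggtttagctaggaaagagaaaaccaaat
Over windows running from 250 bases before to 50 after the start, on either strand, the G-box was in 10.3% of genes at least 2-fold higher in pifq, 10.4% of genes at least 2-fold lower and 8.73% of all tested. The PBE-box was in 15.2%, 19.4% and 12.9%, and the I-box core in 67.7%, 53.8% and 61.2%. The W-box core (TTGACC or GGTCAA) was in 11.7%, 14.5% and 14.3%, and the ABRE (ACGTGTC or GACACGT, which can overlap a G-box) in 6.60%, 5.04% and 4.90%. The G-box was thus held by nearly equal shares in both directions, while the PBE-box was most frequent among the lower genes and the I-box core least frequent there; no test was made of these shares, and a match is not a shown binding site. Among photosystem genes 11 of 26 windows held a G-box and 2 a PBE-box, and among shade and PIF-induced genes 9 of 25 held a PBE-box and 3 a G-box. The G-box was in 5 of 21 antenna windows and in 3 of 27 windows of chlorophyll synthesis genes.

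**Figure D3:**
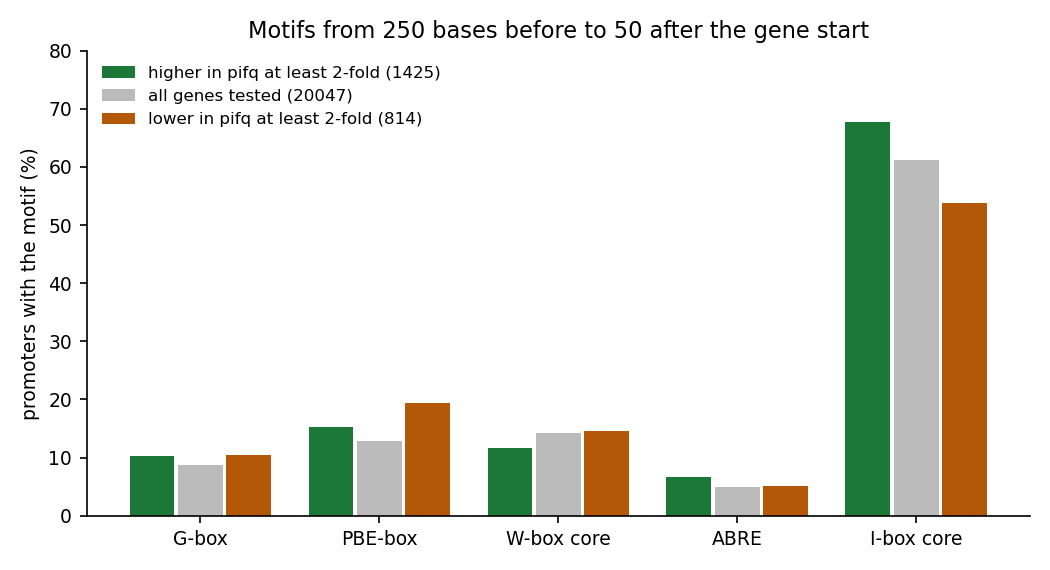
Bars give the percentage of promoter windows that hold each motif on either strand, for 1425 genes at least 2-fold higher in pifq (green), all 20047 genes with a window (grey) and 814 genes at least 2-fold lower (orange). The PBE-box is at 15.2%, 12.9% and 19.4%, and the I-box core at 67.7%, 61.2% and 53.8%.

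The light signalling list, which holds ELIP1 and ELIP2 beside regulators, split evenly, with 6 of 22 tested genes higher and 6 lower. That is 54.5% called, beside 16.3% of all genes tested. BBX23 (AT4G10240), a B-box factor that promotes light-type development, stood at 199 and 187.8 in f1f3, 661.8 and 628.4 in Col and 0.8 and 0 in pifq. Its 402 reads in f1f3 and 1 read in pifq give a scaled ratio of 412 (73.5 to 16300, an exact 95% interval for counting alone). ELIP1 (AT3G22840), an early light-inducible protein of the thylakoid, stood at 224.4 and 301.9 in f1f3 and 2.4 and 0 in pifq, or 556 reads against 3, a scaled ratio of 190 (64.6 to 923). Both genes were at or near 0 in pifq and clearly detected in every f1f3 and Col library. ELIP2 and BBX20 were also lower in pifq, by log2 differences of -3.82 and -2.11. HY5 and COL7 were chosen after their values were seen. HY5, the bZIP factor that drives light responses, stood at 244.6 and 207.1 in f1f3, 113.4 and 95.3 in pifq and 303.3 and 371.1 in Col, a log2 difference of -1.11 that did not pass without pifq replicate 2 or either f1f3 library. COL7 was listed at 0 in both f1f3 libraries and stood at 48.7 and 129.4 in pifq, at least 57.0-fold higher when set against 3 reads over the f1f3 group; it did not pass without pifq replicate 2 (limma adjusted p = 0.0783). Only 1 to 4 of the higher regulators passed with 1 mutant library left out. Among 14 photoreceptor genes, PHOT2, CRY1 and FKF1 were higher in pifq by log2 differences of 0.96, 0.83 and 2.36 (21.4% called, beside 16.3% of all genes tested). These calls were lost when either f1f3 library was left out, and CRY1 also missed with library totals (limma adjusted p = 0.0536). PHOT1 was lower in pifq and did not pass (limma adjusted p = 0.0563), although it did under DESeq2 (adjusted p = 8.88e-04).

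Cell wall genes showed large differences in both directions. Of 28 xyloglucan endotransglucosylase (XTH) genes, whose products cut and rejoin wall xyloglucan, 11 were lower in pifq and 4 higher. That is 53.6% called, beside 16.3% of all genes tested. XTH7 stood at 38.1 and 39.5 in f1f3, 1793 and 1231 in Col and 2171 and 2594 in pifq, a log2 difference of 5.90 ± 0.22 (SE, limma adjusted p = 1.35e-05), so that f1f3 was the genotype that stood apart. XTH6 stood at 1.1 and 4.4 in f1f3, 0 and 7 in Col and 183.7 and 431.3 in pifq, so that there pifq stood apart, though the call was lost without pifq replicate 2 (limma adjusted p = 0.059). XTH24 was higher by 2.43, and XTH12 was lower, at 1175 and 1745 in f1f3 and 84.6 and 166.8 in pifq. Of 19 alpha-expansin genes, which loosen walls under acid conditions, 8 were lower and 4 higher (63.2% called). EXPA9 stood at 12959 and 11224 in f1f3 and 693.1 and 1229 in pifq, while EXPA16 and EXPA6 were higher in pifq by 2.82 and 1.77. With 1 mutant library left out, 6 to 9 XTH genes were lower (the fewest without f1f3 replicate 2) and 2 to 4 higher, and 3 to 5 expansin genes were lower (the fewest without pifq replicate 1). CEL2, an endoglucanase gene, was at 2379 and 1942 and 83.8 and 119.2, and the cell wall glycoprotein gene HRGP1 at 33032 and 40593 and 1731 and 9155; HRGP1 did not pass without either f1f3 library.

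Root markers that passed were mostly lower in pifq. Of 14 root markers, all detected, 6 were lower in pifq, 1 was higher and 7 did not pass (50% called, beside 16.3% of all genes tested). EXPA7 and EXPA18 also belong to the alpha-expansin list, so those lists are not independent. The summed value of the root markers was 22809.8 and 23540.2 in f1f3, 5424.5 and 8082 in pifq, and 11057 and 11891 in Col. PRP3, a proline-rich wall protein gene of root hairs, made up most of that sum in f1f3, at 14069 and 16089 in f1f3 and 763.4 and 2209.8 in pifq. EXPA18, a root hair expansin gene, stood at 1133 and 1163 and 144.5 and 211.1, and GL2, a regulator of hair cell fate, differed by -0.92. IRT1, the root iron transporter gene, went the other way, at 22.2 and 0.9 in f1f3, 205.2 and 419.9 in pifq and 277.6 and 1660.2 in Col, though it did not pass without replicate 2 of either mutant. Their part in the differences of wall genes was not tested. Between 2 and 4 root markers were lower with 1 mutant library left out. Markers of the stomatal lineage were higher in pifq for 6 of 12, with none lower (50% called). They summed to 1673 and 1798 in f1f3, 3676 and 3828 in pifq, and 1968 and 1908 in Col. POLAR, a polarity protein of stomatal precursor cells, stood at 52.9 and 72.9 in f1f3, 352.2 and 336 in pifq and 66.8 and 42.9 in Col. TMM, the receptor-like protein that spaces stomata, stood at 544.2 and 424.8, 1334 and 1146 and 566.7 and 470. In both genes pifq was above Col and f1f3 alike. SPCH, which starts the lineage, stood at 153.5 and 291.4 in f1f3 and 489.5 and 556.1 in pifq. That count of 6 was 3 with any 1 mutant library left out. Of 5 pollen markers 1 was listed, and it stood at 4.2 and 0 in f1f3 and 2.4 and 10.2 in pifq, short of the minimum of 10 in 2 libraries.

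**Figure D4:**
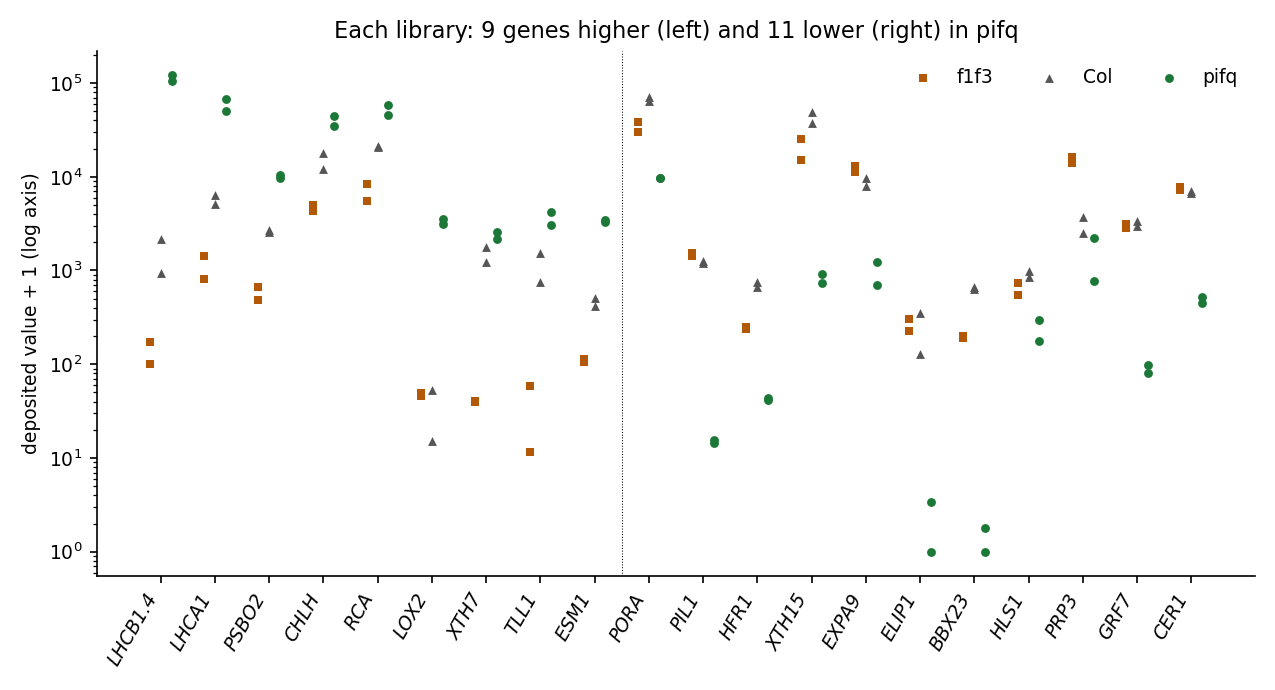
Deposited value + 1 (log axis) in each library for 20 named genes, 9 higher and 11 lower in pifq; squares are f1f3, triangles Col and circles pifq, 2 libraries each. For LHCB1.4 the order is f1f3, Col, pifq, whereas for PIL1, GRF7 and CER1 the Col libraries lie beside f1f3 and for LOX2 beside f1f3 as well.

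Hormone-related lists held members moving both ways. Among jasmonate genes, 5 of 19 were higher and 4 lower (47.4% called, beside 16.3% of all genes tested). LOX2 (AT3G45140), the chloroplast lipoxygenase of jasmonate synthesis, stood at 44.5 and 48.3 in f1f3, 14.1 and 51.6 in Col and 3500.0 and 3095 in pifq. AOC2, the allene oxide cyclase gene of the same route, stood at 7.4 and 23.7 and 610.1 and 818.3. For both, pifq stood apart from the other genotypes (limma adjusted p = 4.22e-04 and 0.00111), whereas AOC3 and the repressor gene JAZ1 were lower in pifq by log2 differences of -1.11 and -1.55. Of 65 SAUR genes, which encode small auxin-induced proteins, 6 were higher and 4 lower (15.4% called, near the 16.3% of all genes tested); SAUR17 fell from 577 and 194 in f1f3 to 4 and 17 in pifq, and SAUR57, SAUR77 and SAUR14 were higher by 3.22, 3.19 and 2.77. Of 34 Aux/IAA and GH3 genes, 3 were higher and 1 lower (11.8%, below that of all genes). GH3.9, of the family that conjugates auxin, stood at 5.3 and 2.6 and 157.3 and 301.9. Gibberellin genes gave 5 higher and 2 lower of 21 (33.3% called), with the gibberellin-regulated peptide gene GASA6 at 166.2 and 72.9 and 1892 and 4008. For type-A response regulators, which damp cytokinin signalling, 5 of 8 were higher, led by ARR16 (3.41) and ARR7 (1.98). That is 62.5% called, beside 16.3% of all genes tested. The lowest log2 difference in the list was -1.45. None was called lower under the main limma fit, but 1 was under edgeR with TMM factors and under DESeq2. With 1 mutant library left out, the number higher ran from 2 to 4 for jasmonate, 3 to 10 for SAUR, 1 to 2 for Aux/IAA and GH3, 1 to 5 for gibberellin and 1 to 3 for response regulators. The lowest number of each was reached without pifq replicate 2, for jasmonate also without f1f3 replicate 2, and for gibberellin also without pifq replicate 1 or f1f3 replicate 2. Brassinosteroid genes gave 1 higher and 1 lower of 15 (13.3%, below that of all genes), namely BES1 (1.26) and BR6OX2 (-0.66), and neither passed without replicate 2 of pifq or of f1f3.

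Of 27 ethylene and apical hook genes, 6 were lower in pifq and 2 higher (29.6% called, beside 16.3% of all genes tested). ACO4, which encodes an enzyme of the last step of ethylene synthesis, stood at 671.2 and 791.7 in f1f3 and 5072 and 8224 in pifq, and ACO5, of the same step, at 3146 and 3738 and 745 and 1308. These isoforms thus differed in opposite directions (limma adjusted p = 3.93e-04 and 0.00367). ACS4, of the preceding step, stood at 1.1 and 2.6 and 35.1 and 35.2, and ARGOS was lower, with a log2 difference of -1.07. HLS1, a gene needed to form the apical hook, was chosen after its values were seen; it stood at 741.1 and 544.2 in f1f3, 294.7 and 175.9 in pifq and 993.4 and 844.5 in Col, and lost its call without pifq replicate 2 (limma adjusted p = 0.0532) or f1f3 replicate 1 (0.0597). The lower count was 2 without pifq replicate 2 and 2 without f1f3 replicate 1. Among 19 abscisic acid, cold and drought genes, 4 were higher and 2 lower (31.6% called). RD20, a calcium-binding caleosin gene, fell from 940.1 and 757.5 in f1f3 to 11.2 and 20.4 in pifq, while the dehydrin gene COR47 stood at 3947 and 2807 and 10390.5 and 10904. With 1 mutant library left out 1 to 3 of these genes were higher, the fewest without pifq replicate 1, and 1 or 2 lower.

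Genes of sugar starvation and amino acid breakdown, which plants use when carbon is short, were higher in pifq for 18 of 25, with none lower. The median log2 difference was 1.39, and the share called was 72%, beside 16.3% of all genes tested. DIN10, a dark-inducible raffinose synthase family gene, stood at 1187 and 1092 in f1f3, 6775 and 7544 in pifq and 8772 and 10129.9 in Col. ERD5, the proline dehydrogenase gene, stood at 301.7 and 271.2, 975 and 990.8 and 1788 and 2586. In both genes f1f3 was lowest and Col highest. DIN4, of branched-chain amino acid breakdown, and TPS11, of the trehalose phosphate synthase family, were higher by 1.96 and 1.94. ASN1, the dark-induced asparagine synthetase gene, was chosen after its values were seen; at 422.4 and 48.3 in f1f3 and 470.3 and 2028 in pifq its libraries varied widely and it did not pass (limma adjusted p = 0.0844), with Col at 8736 and 9917. The count of 18 was 6 without pifq replicate 2 and 3 without f1f3 replicate 2.

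Other lists had shares called nearer to, or below, the 16.3% of all genes tested. Of 14 heat, touch and low-oxygen genes tested, 3 were higher in pifq (21.4% called). The low-oxygen haemoglobin gene HB1 stood at 156.7 and 185.2 in f1f3 and 1569.9 and 1311 in pifq. SUS1 and ADH1, also low-oxygen genes, were higher by 1.69 and 2.80. The number of list members passing changed without pifq replicate 2 and without f1f3 replicate 2. Iron genes were higher for 4 of 16, including the ferritin gene FER1 (1.56), OPT3 and BHLH039, and the count was 1 without replicate 2 of either mutant and 2 without pifq replicate 1. Clock genes were higher for 3 of 15, namely PRR5, PRR7 and ELF3, and 1 was higher without pifq replicate 2 and none without f1f3 replicate 2. Glucosinolate genes were lower for 4 of 23, IPMI2, CYP83B1, CYP79B2 and IMS2, by log2 differences from -0.81 to -1.57, and none passed without pifq replicate 2 or f1f3 replicate 1 and 1 without f1f3 replicate 2. In the flavonoid list PAP1 (AT1G56650), a MYB activator of anthocyanin genes, was the 1 lower gene of 12, and it did not pass without pifq replicate 2 or either f1f3 library, whereas 3 members were lower without pifq replicate 1. Among 59 cell cycle genes CYCB1;5 was higher and FZR2 lower, and neither passed without pifq replicate 2. Of 21 core histone genes none passed under limma or edgeR with TMM factors, 3 had an unadjusted limma p under 0.05, and 1 passed under DESeq2; with values rescaled to library totals, limma called 2 lower.

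Among the other genes with the largest differences, TLL1, a triacylglycerol lipase-like gene, stood at 57.2 and 10.5 in f1f3 and 4211 and 3037 in pifq. GRP9, a glycine-rich protein gene, stood at 5.3 and 1.8 and 265.1 and 162.3. ESM1, which steers glucosinolate breakdown towards isothiocyanates, stood at 103.7 and 111.5 in f1f3, 506.3 and 412.2 in Col and 3494 and 3295 in pifq. All 3 were clear of the spread between libraries, with limma adjusted p of 6.24e-04, 4.65e-04 and 1.33e-05. In the other direction, GRF7 (AT5G53660), a growth-regulating transcription factor, stood at 2863 and 3097 in f1f3, 2972 and 3401 in Col and 97.4 and 79.4 in pifq. CER1, an enzyme of cuticular alkane synthesis, stood at 7826 and 7205, 7018 and 6637 and 517.4 and 447.2. MYB10, a MYB factor of iron deficiency, stood at 673.3 and 600.4, 1135 and 1134 and 45.5 and 44.3. For these 3 the low values were in pifq, with log2 differences of -5.07, -3.96 and -3.79. LATE, a zinc finger gene, CYP96A5 and CYP96A3, which encode cytochromes P450, and OLEO3, an oleosin gene, were lower, with log2 differences of -5.97, -5.08, -4.68 and -4.46. Of the abundant lower genes, LTP2, a lipid transfer protein gene of the cuticle, stood at 273915 and 113117 in f1f3 and 30896 and 15622 in pifq, and its call was lost without pifq replicate 2 (limma adjusted p = 0.117) or f1f3 replicate 1 (0.0511). PDF1, an epidermal gene, and ACO3 (AT2G05710), an aconitase gene, were lower, with log2 differences of -1.42 and -0.87, and neither passed with any 1 mutant library left out.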

How the data were processed

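Each of the 6 libraries has 1 deposited file with a signal value per gene, written to 1 decimal. The submitters' processing notes name Trimmomatic, TopHat2 2.1.0, HTSeq 0.6.1, edgeR and TAIR10, without saying which step made the deposited signal. Between 99.93% and 99.99% of values were whole multiples (tolerance 0.0505) of the value of 1 read, 0.799 to 1.29 by library, so the deposited signal is a gene count divided by a median-of-ratios factor. Columns of other samples: 0.

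The test was limma 3.58.1 (R 4.3.3) with an intensity trend on log2(value + 1), two-sided, all 6 libraries in 1 fit, contrast pifq minus f1f3. Fold changes are on that scale, which understates those of low genes. Residual degrees of freedom were 3 and prior ones 5.13, and calls needed a Benjamini-Hochberg adjusted p under 0.05 over 20239 genes. Alternatives used edgeR 4.0.16 and DESeq2 1.42.0 on recovered reads.

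The 33 gene lists (948 genes, 28 of them not listed in the files) and the comparison were chosen with earlier results of these data known. Gene IDs matched RefSeq TAIR10.1 for 24148 of 24439 genes, and 9760 had a symbol. Named genes are the 6 targeted genes, per direction the 12 largest differences (mean of at least 100, with a symbol, no overlap), the 5 smallest adjusted p and the 5 most abundant, up to 4 members per list by p, and 4 others (HY5, COL7, HLS1 and ASN1) plus a few list members that are named in passing after their values were seen. Intervals cover counting error only.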

Additional observations from a re-analysis of the deposited data

How the results depend on the processing

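With 1 library left out, from either mutant or from Col, the number of genes changed ranged from 1415 to 2924, with 794 to 1739 higher in pifq and 540 to 1185 lower; at least 2-fold it ranged from 1367 to 2240. With the replicate number as a block, 5476 genes passed, 2977 higher and 2499 lower, and 2798 at least 2-fold; 24 chloroplast-encoded genes passed under it, against 4, and 4 core histone genes, against 0. The labels give no shared litter, batch or day for a number, so the pairing was not shown: same-numbered deviations correlated at 0.23 between pifq and f1f3, 0.45 between pifq and Col and 0.36 between f1f3 and Col, but there are only 2 numbers. The other fits gave 2916 (4 mutant libraries only), 3272 and 3382 (pseudocounts 0.5 and 8), 3132 and 3145 (no filter; at least 50), 3434 (library totals, limma), 3277 (edgeR, TMM), 3356 (edgeR, library totals) and 4343 (DESeq2). Library totals turned the split to 1524 higher and 1910 lower under limma and to 1488 and 1868 under edgeR. Of the 153 genes chosen by the rule or after their values were seen, 129 passed, and 0 of these changed sign in any fit run; of the other 24, 3 did (the seed genes CRC, CRA1 and SESA5). Of the 129, 45 lost the call without pifq replicate 2, 37 without f1f3 replicate 2, 31 without f1f3 replicate 1, 27 without pifq replicate 1, and 3 or 4 without a Col library; 3 lost it with the 4 mutant libraries only and 3 with no filter, 6 and 7 with library totals (limma and edgeR), and 0 under the other fits. Calls were fewer at low values: 10.6% of the 5060 genes with the lowest values passed, against 22.1% of the 5060 with the highest.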
